A study of Mus musculus with 4 samples.

Results

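The H19, Igf2 and Ins2 locus of mouse chromosome 7 was examined for binding of CTCF, the zinc-finger protein found at chromatin insulators and loop anchors. CTCF had been mapped by ChIP-seq (immunoprecipitation of protein-bound chromatin, then sequencing) on unsorted testes from F1 (B6xCAST) mice, the offspring of 2 inbred strains. The series holds 4 samples, 2 immunoprecipitated and 2 input, with no treatment and no mutant group; the age of the mice and which strain was the mother are not given in the sources used here. All values come from 1 merged peak list, which has no column per sample or per parental allele and no gene expression. The spread between animals, the allele bound and the make-up of the tissue therefore could not be measured, and no test between groups was possible. Of the 51871 peaks of that list, 22 had their summit, the position of highest signal in a peak, in a fixed 350 kb window around the 3 genes. Their summits ran from 142481379 to 142799624. Position was the only criterion for taking a peak, and its strength played no part. The members and the lists of genes were themselves chosen with earlier results of these data known. Positions are on chromosome 7 of mm10 and counted from 1.

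H19 and Igf2 are a textbook case of genomic imprinting. H19 makes a long noncoding RNA that also carries the microRNA miR-675 and is expressed from the maternal copy, while Igf2 makes the fetal growth factor IGF2 and is expressed from the paternal copy. The imprinting control region lies next to H19 on the side towards Igf2 and holds several CTCF sites. In somatic cells CTCF binds the unmethylated maternal copy, where it blocks Igf2 from enhancers beyond H19. Methylation, laid down in the male germline, keeps CTCF off the paternal copy. Ins2, one of the mouse insulin genes, lies beyond Igf2 and is imprinted in the yolk sac.

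Sequence under a peak was available for only a few places, since no genome was used and the RefSeq promoter table (GRCm38.p6, the build of mm10) covered 6 of the 14 genes annotated in the window, of the 3 members only Igf2. The table gives 250 bases before and 50 bases after each transcription start. 1 of its 13 windows in this locus held a CTCF summit, against 13.0% of the 32851 windows in the whole table. It belongs to Gm33148, an uncharacterised noncoding gene between H19 and Igf2, at chr7:142610569-142610868, plus strand. It is shown because the summit at 142610743 lies inside it, 76 bp before the annotated start at 142610819. The nearest Igf2 start to any summit is 142658804, on the minus strand, and its 250 upstream bases (chr7:142658805-142659054) are shown because a summit lies 600 bp upstream of that start. The 250 bases before the start of Mrpl23 (chr7:142532782-142533031, plus strand), a gene for a mitochondrial ribosomal protein, are shown because they lie wholly within a peak whose summit is 81 bp downstream of the start. Each is written 5′ to 3′ on the strand of its gene, and capitals mark GGGGGCGC or its reverse complement.
Gm33148: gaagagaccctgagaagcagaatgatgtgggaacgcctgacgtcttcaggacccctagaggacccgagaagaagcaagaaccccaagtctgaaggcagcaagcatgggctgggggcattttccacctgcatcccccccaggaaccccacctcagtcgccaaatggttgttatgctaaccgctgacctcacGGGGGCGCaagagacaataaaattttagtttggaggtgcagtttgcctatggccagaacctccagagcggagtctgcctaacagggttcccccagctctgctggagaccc
Igf2: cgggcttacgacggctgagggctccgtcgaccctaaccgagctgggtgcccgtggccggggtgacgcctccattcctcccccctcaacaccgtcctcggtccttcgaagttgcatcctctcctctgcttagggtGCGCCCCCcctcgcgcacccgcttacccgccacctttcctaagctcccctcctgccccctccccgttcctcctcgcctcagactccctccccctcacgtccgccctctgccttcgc
Mrpl23: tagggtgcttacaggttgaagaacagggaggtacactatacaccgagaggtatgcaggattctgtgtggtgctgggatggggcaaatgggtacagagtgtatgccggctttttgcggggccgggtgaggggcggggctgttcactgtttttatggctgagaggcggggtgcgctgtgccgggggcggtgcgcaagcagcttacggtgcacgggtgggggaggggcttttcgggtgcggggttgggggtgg

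CTCF motifs were searched in these windows as letters on both strands. The conserved core of the sites known from the imprinting control region was searched as 12 letters, of which 2 may be any base. A looser core of CTCF sites in general was searched as 12 letters, of which 5 may be any base. Neither matched any of the 13 windows of the locus. Over the whole table they matched 0.371% and 8.61% of windows. Among the 4278 windows that held a summit the shares were 0.818% and 23.4%. The shorter string GGGGGCGC was searched after the Gm33148 sequence had been seen, so its match there was not an independent observation. It occurred in 3 windows of the locus. In the Gm33148 window it spanned 142610759 to 142610766, with its centre 19.5 bp from the summit. Both other matches were upstream of Igf2 starts, 487.5 and 1702.5 bp from the nearest summit, so neither lay under it. The string occurred in 3.34% of all windows, in 11.1% of those with a summit and in 2.17% of those without. These are matches of letters and not measured binding sites.

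The strongest CTCF peak of the locus lay on the imprinting control region side of H19. It spanned 142581579 to 142582201 with its summit at 142581896, 3.75 kb from the end of H19 that faces Igf2. Its width was 623 bp, its fold enrichment (the authors' ratio of signal at the summit to background) was 13.4, and its −log10 q, the authors' measure of confidence, was 53.0. By fold it stood above 94.6% of all peaks, and by −log10 q above 73.9%. Among the 585 peaks of the list with a fold within 0.25 of it the median −log10 q was 62.8, and 3.93% had a lower one. The peak was also narrower than the median of those peaks, 782 bp.

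A second peak lay next to it on the side of H19, from 142580133 to 142580983. Its summit at 142580715 was 2.57 kb from H19 and 1.18 kb from the stronger summit. The fold was 4.61 and the −log10 q 15.3. It was 851 bp wide, against a median of 315 bp for the 3272 peaks of like fold, and 81.6% of those had a lower −log10 q. The neighbours thus differed in opposite ways from peaks of like fold. The stronger peak was narrow with a low −log10 q for its fold, and the weaker was broad with a high one. No peak overlapped H19 itself, and the nearest summit on its other side, at 142552675 inside Nctc1, was 22.9 kb away with a fold of 5.005.

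**Figure D1:**
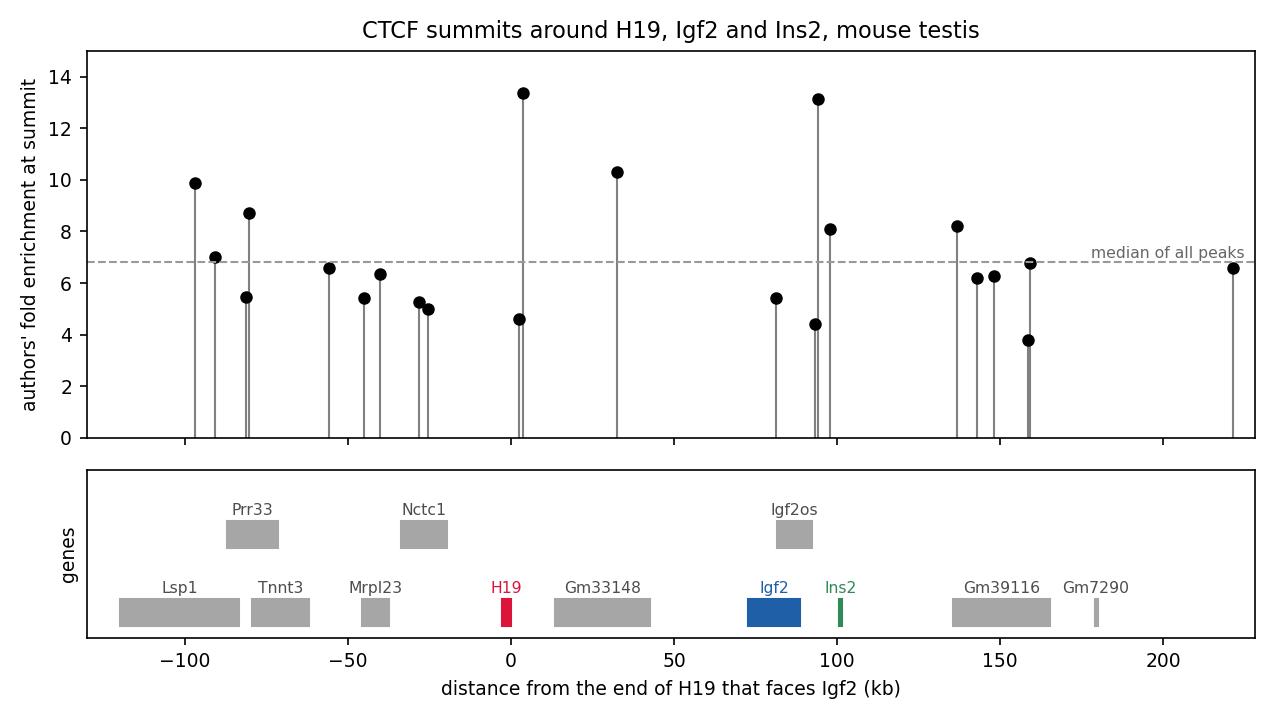
Fold enrichment at each of the 22 CTCF summits (upper panel, points on stems; the dashed line is the median of all peaks) and the annotated genes (lower panel, boxes) against distance in kb from the end of H19 that faces Igf2; Mir675 and Mir483, inside H19 and Igf2, are not drawn. The 3 summits with a fold of at least 10 stand at 3.75, 32.6 and 94.2 kb, and none lies inside H19, Igf2 or Ins2.

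The interval between H19 and Igf2 is 72.6 kb long and held 3 summits. The remaining one, at 142610743, lay under the Gm33148 sequence printed above. It was 32.6 kb from H19 and 40.0 kb from Igf2. The peak spanned 142610332 to 142611271 and was 940 bp wide, of fold 10.3 and −log10 q 59.1. These values stood above 82.5% of all peaks by fold and 81.3% by −log10 q. From this summit to the next one, inside Igf2, ran 48.7 kb without a peak.

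Igf2 (142650768 to 142666816) had 1 peak inside it, a weak one. It spanned 142659232 to 142659586 with its summit at 142659404. It was 355 bp wide. Its fold was 5.41 and its −log10 q 10.8, which stood above 33.1% and 24.99% of all peaks. Igf2os, which makes a transcript antisense to Igf2, has its annotated lower end 276 bp from that summit. Igf2 has several promoters, and the 4 starts in the table lay 600 bp, 1.87 kb, 1.91 kb and 4.44 kb from their nearest summits. No Igf2 window of the table overlapped a peak. The microRNA gene Mir483, within Igf2, lay 4.41 kb from its nearest summit.

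The other strong peak of the locus lay between Igf2 and Ins2, upstream of Igf2. Its summit at 142672327 was 5.51 kb from Igf2 and 6.33 kb from Ins2. The peak spanned 142671919 to 142672766 and was 848 bp wide. Its fold of 13.1 came close to the 13.4 on the H19 side, and its −log10 q of 59.3 was higher than the 53.0 there. No error between replicates is known for either value, so the order of these peaks was not tested. At the like fold, 40.9% of peaks had a lower −log10 q, so its −log10 q was ordinary for its fold. A weak peak, of fold 4.40 and −log10 q 6.995, had its summit 1.07 kb away at 142671257 and was 285 bp wide, so this strong peak too had a weak neighbour. The distance between these neighbours was close to the 1.18 kb of those next to H19. Close pairs also occurred without a peak of that strength. Summits of fold 5.45 and 8.71 lay 0.91 kb apart, and summits of fold 3.80 and 6.77 lay 0.6 kb apart.

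Ins2 (142678656 to 142679726) held no summit. The nearest, at 142675892, was 2.76 kb from it on the side of Igf2. That peak was 478 bp wide, of fold 8.08 and −log10 q 27.1. On the far side of Ins2 the first summit was 35.1 kb away, at 142714872 inside the noncoding gene Gm39116. It had the highest −log10 q of the locus, 61.6, at a fold of 8.21. Strength by −log10 q and strength by fold thus put different peaks first. The 5 summits inside Gm39116 had folds from 3.80 to 8.21, and the peak of highest −log10 q was 983 bp wide. The next summits, at 142720917 and 142726234, belonged to peaks 818 and 624 bp wide with folds of 6.19 and 6.26. The weakest peak of the whole locus, with a fold of 3.80 and a width of 293 bp, had its summit at 142736516. The widest peak of the locus, 1729 bp, was among them, with a fold of 6.77, a −log10 q of 59.3 and its summit at 142737116. Of all peaks, 98.1% were narrower. Its summit was 600 bp from that of the weakest peak and lay at 14.5% of the peak's width, while the other 21 summits lay between 40.7% and 68.4%. Gm7290, a pseudogene beyond Gm39116, held no summit and had its nearest one 20.1 kb away. Beyond Gm39116 a single summit remained, at 142799624, in a peak 1004 bp wide of fold 6.58 and −log10 q 48.0.

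On the other flank of H19 lay 9 summits, with folds from 5.005 to 9.89. Those inside Nctc1, a noncoding gene near the enhancers beyond H19, were weak, with folds of 5.27 at 142550128 (375 bp wide) and 5.005 at 142552675 (310 bp wide). Mrpl23 held 2 summits, with folds of 5.44 at 142533113 and 6.35 at 142538082, the latter in a peak 766 bp wide. The first of these lay 81 bp from the promoter start given above and 646 bp from the annotated outer end of the gene. It had a −log10 q of 51.4, above 96.0% of the peaks of like fold, whose median was 13.5. It was thus a broad peak of 977 bp with much higher confidence than its fold alone would place it. The gene for fast skeletal troponin T, Tnnt3, had a summit of fold 8.71 at 142497998, 773 bp from an end, in a peak 430 bp wide. A weaker peak of fold 5.45 (363 bp wide) had its summit 0.91 kb from it at 142497088. Both of these summits lie inside Prr33, which the table annotates as noncoding and which overlaps Lsp1 and Tnnt3. Another peak of fold 6.59 (336 bp wide) lay between Tnnt3 and Mrpl23 at 142522554. Lsp1, a gene for an actin-binding protein of leukocytes, held 2 summits, the stronger of fold 9.89 at 142481379 in a peak 786 bp wide. The other, at 142487476, had a fold of 7.01 and a width of 392 bp. The 9.89 was the fourth highest fold of the locus.

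None of the 3 members had a summit within 1 kb of an annotated gene end. Among protein-coding genes of the autosomes and X, 39.1% had one, and among lncRNA genes 19.3%, so a gene without one is the more common case in both classes. The distance from an end to the nearest summit was 2.57 kb for H19, 2.76 kb for Ins2 and 4.44 kb for Igf2. Of the 12609 lncRNA genes, 68.7% had a summit as far away as H19 or farther. Of protein-coding genes, 47.3% were as far as Ins2 and 39.9% as far as Igf2. The 3 summits with a fold of at least 10 thus lay more than 1 kb from the members' ends. By the shares given, such distances are common among genes of both classes. Only the outer ends of each annotated gene were used, so starts inside a gene did not count. An Igf2 start at 142658804 lay 600 bp from a weak summit, of fold 5.41. A Gm33148 start at 142610819 lay 76 bp from a summit of fold 10.3. Of the other genes in the window, Tnnt3, Mrpl23 and Igf2os had a summit within 1 kb of an end.

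As a set, the 22 peaks were of ordinary strength and closely spaced. The median fold was 6.47, from 3.80 to 13.4, against 6.82 over all peaks and 7.01 on chromosome 7. The median −log10 q was 29.3, against 29.5 over all peaks, and the median width 624 bp against 529 bp. Folds of 10 or more were seen in 3 of 22, against 19.6% of all peaks, and folds of 5 or more in 19 of 22, against 71.9%. Between neighbouring summits the median gap was 9.61 kb, against 15.1 kb on chromosome 7. Gaps under 5 kb numbered 7 of 21, and 20.1% of all gaps on the autosomes and X were that short. Gaps over 20 kb numbered 6 of 21, against 47.2%. The longest was the 62.5 kb before the last summit, at 142799624.

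**Figure D2:**
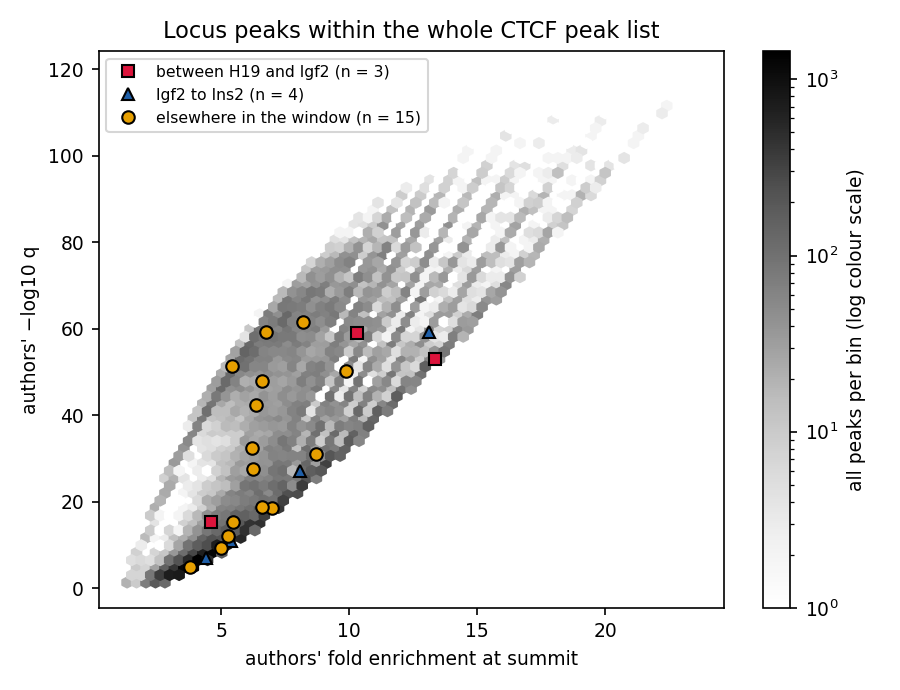
The authors' −log10 q against their fold enrichment for all 51871 peaks (grey bins, log colour scale) and for the 22 peaks of the locus (squares between H19 and Igf2, triangles from Igf2 to Ins2, circles elsewhere). The peak of fold 13.4 next to H19 lies at the lower edge of the cloud, with a −log10 q of 53.0, and 5 circles with −log10 q from 42.3 to 61.6 lie at folds below 9.

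Fold and −log10 q moved together among the 22 peaks, with a Spearman's rho of 0.789 and a Pearson's r of 0.702. Over all peaks rho was 0.854 and r was 0.819. Width followed −log10 q more closely than it followed fold, with a rho of 0.833 against 0.451. The same order held over all peaks, with 0.843 against 0.584. The points come from the same libraries and both measures from the same signal, so these are descriptions across peaks.

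The window was among the denser ones for CTCF. Consecutive windows of 350 kb on chromosome 7 held a median of 6 summits, from 0 to 47. Of 406 such windows, 31 (7.64%) held at least 22. On the autosomes and X together the share was 4.75% of 7333 windows. The locus has 5 protein-coding genes centred in it, and windows with that number held a median of 11 summits, with 5.72% of 367 reaching 22. A highest fold exists only for windows that held a summit. The 13.4 here was near the median highest fold in such windows with 5 protein-coding genes, 13.1. It was above the median for such windows of chromosome 7, 12.1. Most of those windows held fewer summits than the 22 here, so these medians are not a comparison at a like count. Chromosome 7 windows that also held 22 summits had highest folds of 14.1, 14.5 and 14.6, all above the 13.4. The limits of the window were set by position. The last summit lay 0.377 kb inside the upper limit, with a fold of 6.58, and the next one outside was 50.9 kb beyond it, with a fold of 8.88. At the lower limit the first summit lay 31.4 kb inside, with a fold of 9.89, and the next 9.27 kb outside, with a fold of 5.58.

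**Figure D3:**
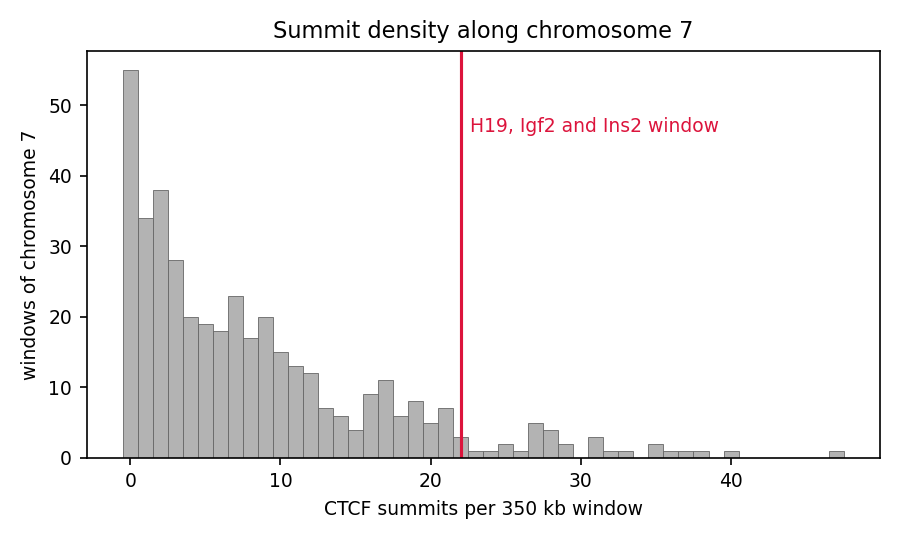
Number of chromosome 7 windows of 350 kb (bars) by the number of CTCF summits they hold; the line marks the 22 summits of the H19, Igf2 and Ins2 window. Of 406 windows, 31 hold at least as many.

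Windows of the same length around 3 other imprinted genes are given beside it, with no test, as each is a single window. The window centred on Rasgrf1, whose control region also binds CTCF, held 16 summits with a highest fold of 10.1. Around Kcnq1ot1, the noncoding RNA that silences the neighbouring Kcnq1 domain of chromosome 7, there were 10 summits with a highest fold of 11.5. Around Airn, the noncoding RNA antisense to Igf2r, there were 12 with a highest fold of 10.8. Folds of 10 or more were seen at 1, 3 and 1 of these summits, against 3 in the H19, Igf2 and Ins2 window.

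IGF2 and insulin signal through shared receptors and adaptors, so the genes of that pathway were listed with the members. Of 32 genes, 19 (59.4%) had a CTCF summit within 1 kb of an end, against 39.1% of all protein-coding genes; this is a count of genes and not a test. Counting only peaks with a fold of 5 or more, it was 10 of 32 against 23.7%, and counting only peaks whose −log10 q reached the list's median, 9 of 32 against 17.0%. The median distance from an end to the nearest summit was 0.654 kb, against 2.29 kb over all protein-coding genes. None of the ligand genes Ins1, Ins2, Igf1 and Igf2 had a gene-end summit, with nearest summits at 359, 2.76, 3.67 and 4.44 kb. The receptor genes Insr, Igf1r and Igf2r each had one. At Insr, the insulin receptor gene, it had a fold of 10.1 at 0.029 kb. At Igf1r, the gene of the receptor that passes on the IGF1 and IGF2 signal, the fold was 4.04 at 0.507 kb. At Igf2r, whose product clears IGF2 from the cell surface and which is itself imprinted, it was 2.71 at 0.093 kb.

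Among the Igfbp genes of the list, Igfbp3, Igfbp4 and Igfbp7 had a gene-end summit and Igfbp1, Igfbp2, Igfbp5 and Igfbp6 had none. Of all protein-coding genes 39.1% had one, so such a split is ordinary. The highest gene-end folds of the pathway were 14.5 at Igfbp4, 12.4 at Akt1, a kinase gene downstream of the receptors, and 10.3 at Igfbp3. Over the 19 genes the median of the highest gene-end fold was 5.69, against 5.87 over all protein-coding genes that had one.

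**Figure D4:**
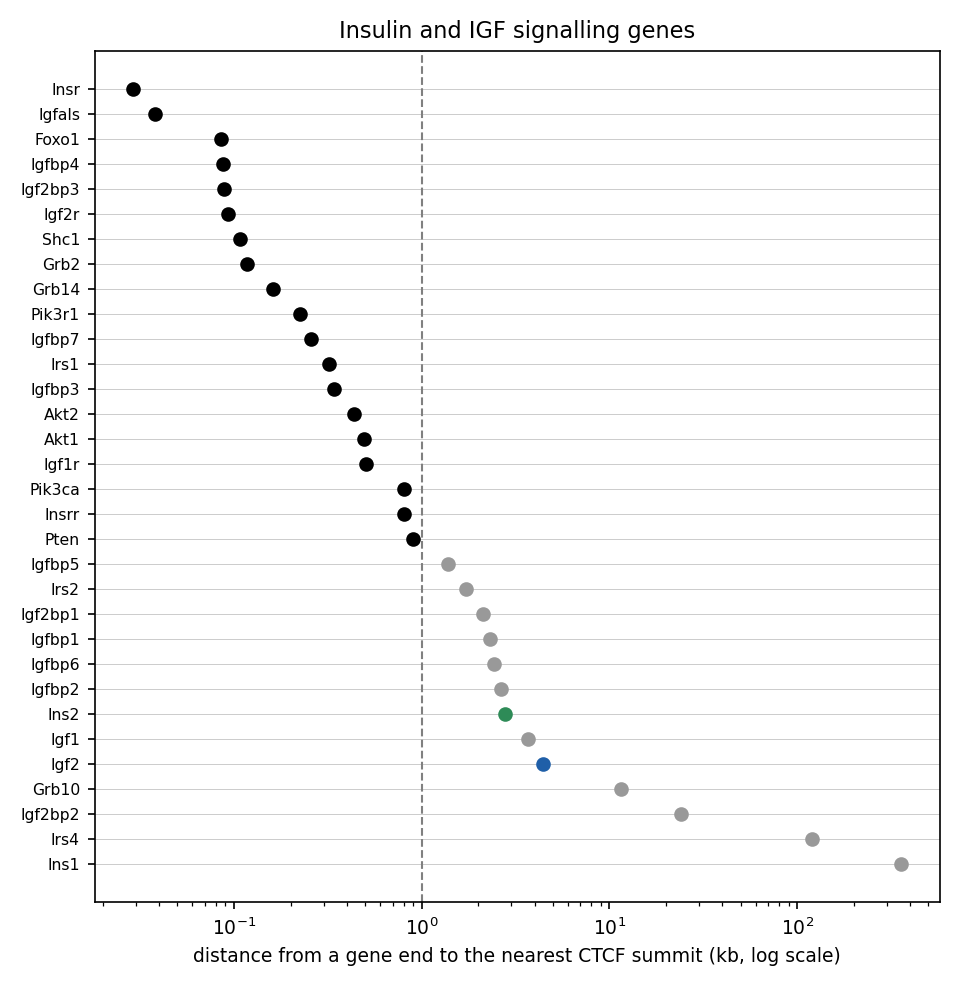
Distance in kb (log scale) from an annotated gene end to the nearest CTCF summit for 32 insulin and IGF signalling genes, ordered by distance; black points are within 1 kb (dashed line), grey points beyond it, with Igf2 in blue and Ins2 in green. Igf2 at 4.44 kb and Ins2 at 2.76 kb lie among the 13 genes beyond the line.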

How the data were processed

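CTCF immunoprecipitates and inputs of whole testis were sequenced, and 1 merged peak list in narrowPeak layout was used. BWA 0.7.12, MACS2 2.2.7 and mm10 are named in the submitters' processing notes, without role or order. The peaks are named both bio2 and merged, which leaves unsettled which samples entered. Per peak, the authors deposited a fold enrichment (a ratio), a −log10 p, a −log10 q, a score and a summit offset. The deposited score repeats 10 times the −log10 q within 1 for 100% of peaks and was not used. The lowest −log10 q was 1.308. Read depth is unknown, and no replicate check was possible.

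Peaks were taken by summit position and values ranked within the list (Python 3.11.15, pandas 2.3.3, SciPy 1.17.1). Percentiles are shares of peaks with lower values. Genes and promoters came from RefSeq tables of GRCm38.p6. The 21523 protein-coding genes start at 3 Mb or above on the 19 autosomes and X, which leaves out scaffold coordinates. Named genes were the members, every gene in the window, the pathway's 3 highest gene-end folds and its receptors, and 3 imprinted centres. Other genes named from the pathway, its ligands and IGF binding proteins, were chosen after their values were seen. Members and lists were chosen with earlier results of these data known. The calls of gene ends and of the imprinting control region core were tested on simulated data. The planted cases all met the rules of the calls, so this checks the code and not how accurate the calls are. Searches for the looser core and GGGGGCGC were not tested in that way. Alternatives were stricter peaks, other gene-end windows, merged summits and other rankings.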

Additional observations from a re-analysis of the deposited data

How the results depend on the processing

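Of 23 alternatives, 17 left the results in place, which for counts means within 1.5 times and for medians and percentiles within the 95% binomial interval. That interval is narrow for the percentile of the strongest summit among 51871 peaks, so small shifts there count as moves. The percentile of the locus median was counted as in place, though it was 45.6 by fold and 49.7 by −log10 q. The labels are thus not on 1 scale, and the 17 is only a rough tally. Restricting the list to peaks whose −log10 q reached its median lowered the 22 summits to 11 and the 19 pathway genes with a gene-end summit to 9, and a fold of at least 5 lowered the latter to 10. Under these settings the share of all protein-coding genes fell as well, to 17.0% and 23.7%. The strongest summit stood above 94.6% of all peaks by fold, 73.9% by −log10 q, 94.8% on chromosome 7 alone and 92.4% among peaks with a fold of at least 5. The count of members with a gene-end summit was 0 in the main setting and in the 5 others tried. Stricter peaks and a 500 bp window could not raise that 0, so their place among the 17 was fixed in advance. The 2.5 kb window just missed H19, at 2.57 kb. Of all protein-coding genes, 31.4% were called within 500 bp and 51.1% within 2.5 kb. Any overlap of a peak with the 1 kb window called 42.8%. The summits between H19 and Igf2 numbered 2 or 3. No paired analysis was possible because the deposited list does not separate the samples, and no replicate could be left out for the same reason. With the depth unknown, weaker sites may have gone uncalled.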
